A study of Arabidopsis thaliana with 10 samples.

Results

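Transcripts that departed for a single sampling time from both of their neighbours were described in Arabidopsis thaliana cells 2 h after release from a block of DNA replication. A probe set was counted where its log2 signal at 2 h lay at least 1 unit, a 2-fold difference, above or below both its 0 h and its 4 h value. Of 22746 probe sets, 502 (2.21%) lay above both neighbours and 420 (1.85%) below both, 922 (4.05%) in all. The 2 h signal itself chose these genes, so their 0, 2 and 4 h values are given as a description, without a test.

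The study followed 1 culture of the suspension line MM2d on 10 ATH1 arrays, 1 for each of 0, 2, 4, 6, 8, 10, 12, 14, 16 and 19 h. Every sample, 0 h included, came from cells in early stationary phase, 7 days after their last subculture, which were diluted into fresh medium holding the auxin NAA, the cytokinin kinetin and 4.16 µg/ml aphidicolin. After 24 h in the dark at 27 °C the drug was removed by washing on a nylon net of 47 µm mesh and a short spin. The 0 h cells were collected at the end of that wash, and the 2 h cells were the first collected after return to drug-free medium. No culture without aphidicolin, without the wash or in replicate was among the samples, so the 2 h time, its handling and its array cannot be told apart.

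Aphidicolin inhibits the replicative DNA polymerases, and its removal lets cells held near the start of S phase copy their DNA. Plant genes of defence and calcium signalling often have short-lived transcripts, and transcript lifetimes were not measured here. Phenylpropanoid enzymes make lignin precursors and related phenolics, glycosyltransferases attach sugars to small molecules, and cytochromes P450 oxidise them.

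Signals are MAS5 values, linear intensities of 1 probe set within 1 array. Signals under 12 were set to 12 before log2 was taken and are called the floor, so that a difference from a value at the floor is a lower bound. The deviation of a gene is the distance of its 2 h log2 signal from the nearer of its neighbours. Among the 502 probe sets above both neighbours the median signal went from 45.8 before to 179 at 2 h and to 39.96 by 4 h. Their median deviation was 1.48 log2 units, a 2.79-fold difference, with an interquartile range of 1.19 to 2.01. The deviation reached 2 units in 127 of them and 3 units in 37. At least 1 neighbour was at the floor for 119 and both for 55.

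The 420 probe sets below both neighbours had median signals of 83.7, 26.3 and 80.2 over the same times. Their median deviation was 1.29, a 2.45-fold difference, with an interquartile range of 1.11 to 1.60. It reached 2 units in 41 and 3 units in 9, and 90 were at the floor at 2 h. The upward departures therefore reached further than the downward ones, although the floor limits how far a weak transcript can be seen to drop. With this floor, a count above needed a 2 h signal of 24 or more, which 13301 probe sets had, and a count below needed 24 or more at both neighbours, which 12886 had.

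**Figure D1:**
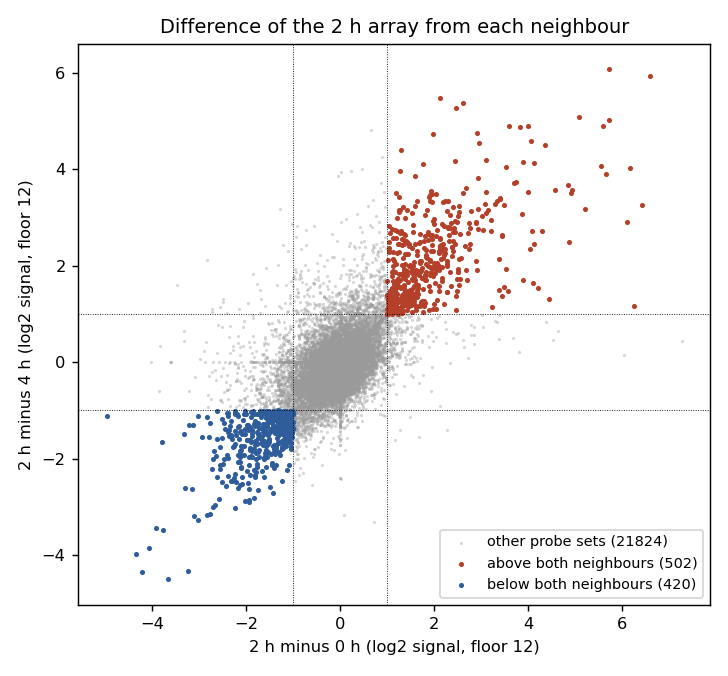
Each point is 1 probe set, with its 2 h minus 0 h log2 difference on the horizontal axis and its 2 h minus 4 h log2 difference on the vertical axis, signals under 12 set to 12. The 502 probe sets above both neighbours fill the upper right corner and the 420 below both fill the lower left.

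By construction, single steps of the same size were at least as frequent as these excursions. From 0 to 2 h, 758 probe sets (3.33%) stood at least 1 unit higher and 1165 (5.12%) at least 1 unit lower. From 2 to 4 h, 1112 (4.89%) stood at least 1 unit lower and 896 (3.94%) at least 1 unit higher. The 502 are those in both the first and the third of these counts, and the 420 those in both the second and the fourth.

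At every other interior time the same rule, applied against that time's own neighbours, found fewer probe sets. It counted 176 (0.774%) at 4 h and 435 (1.91%) at 6 h. Later counts were 130 (0.572%) for 8 h, 96 (0.422%) for 10 h, 170 (0.747%) for 12 h, 163 (0.717%) for 14 h and 152 (0.668%) for 16 h. The 6 h time came next to 2 h, with 285 above and 150 below. Neighbouring times share arrays, so a gene that departs at 1 time also enters the neighbours of the next.

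**Figure D2:**
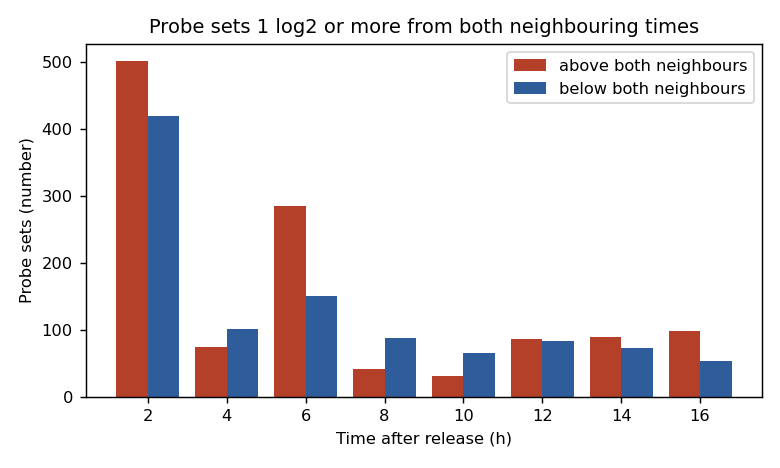
Bars give the number of probe sets at least 1 log2 unit above or below both neighbouring times, for each interior time in hours after release. The 2 h bars, 502 above and 420 below, are the tallest of the 8 times, and 6 h follows with 285 and 150.

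The 2 h array also stood apart as a whole. Its mean correlation with the other arrays across probe sets was 0.931, against 0.955 to 0.969 for the rest, and its median signal was 35.002, against 37.5 to 43.6. The share of probe sets at the floor was 26.9%, against 23.1% to 26.5%. The ratio of 3′ to 5′ signal, which rises as RNA degrades, was 1.26 for GAPDH (1.00 to 1.32 elsewhere) and 2.97 for actin (2.16 to 4.25), both within the range of the other 9 arrays, and 2.79 for ubiquitin, under their 2.90 to 3.67. Because the median signal at 2 h was 0.17 log2 units under that at 0 h and 0.10 under that at 4 h, scaling the arrays to a common median moved the counts to 651 above and 323 below, so that 66.8% of the probe sets lay above instead of 54.4%. With the 0 h array replaced by the 6 h array, 818 lay above both 4 and 6 h and 628 below both. The part of the array in the counts was not tested.

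The 7 arrays from 6 to 19 h played no role in choosing the genes. Over all probe sets, 595 (2.62%) stood at 2 h at least 1 unit above each of these arrays, and 413 (1.82%) at least 1 unit below each. Among the 502, 367 (73.1%) stood at least 1 unit above each of the 7, and 484 had their highest signal of the whole course at 2 h. Among the 420, 224 (53.3%) stood at least 1 unit below each, and 372 had their lowest signal at 2 h. For a highest or lowest signal at 2 h, no count over all probe sets was made to set beside the 484 and 372. Since the choice had already fixed a high or low 2 h value, these shares describe the course and are not an independent check of the 2 h array.

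Levels after 4 h lay close to those at 0 and 4 h. Relative to the mean of its own 0 and 4 h values, the median upward gene stood 1.85 log2 units higher at 2 h and between -0.10 and 0.02 at the times from 6 h on. For the median downward gene the value was -1.51 at 2 h and between -0.15 and 0.03 afterwards. The late median was within 1 unit of the 0 and 4 h mean for 463 of 502 and 391 of 420. Over all probe sets the median difference from that mean was 0 at each of these times, so closeness is not particular to these genes. At 6 h, 15 of the 502 stood at least 1 unit above their 0 and 4 h mean and 45 below. Of the 420 these were 6 and 23, and of all 22746 probe sets 562 and 482.

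The rule itself required a move back by 4 h, but not a return to the 0 h level. Of the 502, 405 had a 4 h value within 1 unit of the 0 h value, 29 stood at least 1 unit above it and 68 at least 1 unit below. Of the 420, 388 were within 1 unit, 26 stood at least 1 unit below 0 h at 4 h and 6 at least 1 unit above. The median 4 h minus 0 h difference was -0.10 for the 502 and -0.05 for the 420, beside 0.00 for all probe sets. How many of all probe sets lay within 1 unit was not counted. YLS5 and CCR2, described further on, are opposite cases among the upward genes, YLS5 still being above its 0 h level at 4 h and CCR2 below it.

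**Figure D3:**
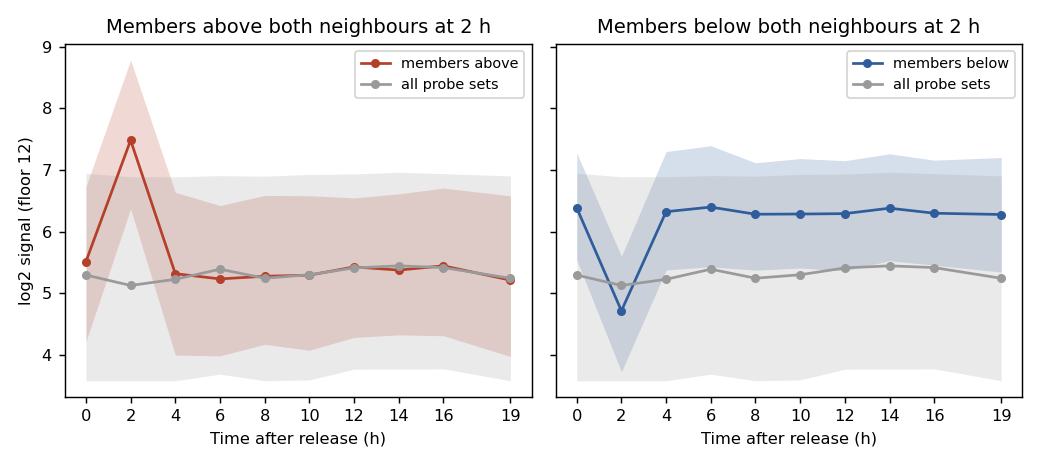
Lines give the median log2 signal, and shading the interquartile range, of the 502 probe sets above and the 420 below both neighbours, against hours after release. The median signal of the upward set goes from 45.8 to 179 and back to 39.96, that of the downward set from 83.7 to 26.3 and back to 80.2, and both stay near these levels to 19 h.

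Of the 502 upward probe sets, 235 name 1 gene, 11 several genes and 256 none in the annotation used. A symbol was given for 30 and a locus code alone for 205. The 420 downward probe sets hold 223 with 1 gene (222 different genes), 6 with several and 191 with none, 35 of them with a symbol and 188 with a locus code alone. Over the array, 13513 name 1 gene, 8730 name none and 1551 have a symbol. What kinds of genes moved can therefore be said for a minority, and all 65 genes with a symbol are named here.

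The largest upward deviations among symbols were those of pEARLI4 and a beta-glucosidase. pEARLI4 had signals of 17.0, 351 and 15.4 in the order 0, 2 and 4 h, in which all later triples are given, a deviation of 4.37, and from 6 h on ranged from 12.4 to 25.2 with a median of 15.8. BGLU27, a beta-glucosidase, an enzyme class that frees sugars from glycosides, went from the floor to 565 and back to 33.6, at least 5.56 above 0 h and 4.07 above 4 h, with a late median at the floor. BGLU31, of the same family, had 80.6, 498 and a value at the floor, a deviation of 2.63 from 0 h, and late signals of 16.4 to 48.1. All 3 genes had a 2 h signal above each of the other 9 arrays.

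In the phenylpropanoid pathway, CCR2, a cinnamoyl-CoA reductase that commits precursors to lignin, rose from 95.5 at 0 h to 722 at 2 h and stood at 26.6 at 4 h. Its differences were 2.92 against 0 h and 4.76 against 4 h, and late signals ran from 14.6 through a median of 35.5 to 59.3. HCT, the hydroxycinnamoyl transferase of the same pathway, had 202, 2119 and 477, a deviation of 2.15, and late signals of 207 to 330.3. The phenylpropanoid and flavonoid list had 2 probe sets, of which CCR2 lay above both neighbours and DFR, a flavonoid reductase, did not, at 17.0, 20.4 and 20.1. HCT was not on that list and is named for its size of deviation.

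Among cytochromes P450, 3 of 24 lay above both neighbours and 0 below, against 2.21% and 1.85% of all probe sets, and all 3 belong to the CYP71B subfamily, as do 19 of the 24 on the list. CYP71B5 had 54.7, 266 and 30.2, a deviation of 2.28, and was at the floor or at most 14.9 later. CYP71B23 was at the floor on each array but that of 2 h, where its signal was 89.2, at least 2.89 above both neighbours. CYP71B6 had 72.0, 400.2 and 188, a deviation of 1.09, and late signals of 46.4 to 103. Of the 24 probe sets 17 were at the floor at 2 h, and 4 had enough signal then to be counted above. Both numbers rest on the 2 h signal that also made the count, and CYP71B23 reached enough signal at 2 h alone. The 4 are therefore no base for a share. Counts on this and the other lists are to be read beside those overall shares, and 1 counted probe set on a short list says little about the list.

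The UDP-glycosyltransferase list had 51 probe sets, with 3 above and 1 below both neighbours, against 2.21% and 1.85% of all probe sets, and 14 with a 2 h signal that allowed a count above. These 14 were also set by the 2 h signal and are no base for a share. UGT73B5 had 13.7, 116 and a value at the floor, a deviation of 3.09 from 0 h, and stayed at the floor from 6 h on. UGT73B4 had 54.1, 129 and a value at the floor, a deviation of 1.25, with a late median at the floor. These genes lie next to each other among genes with a probe set naming only them, and whether their probes share signal was not tested. UGT87A2 had 173, 395 and 192, a deviation of 1.04, which fell under 1 after quantile normalization and when the 6 h array took the place of either neighbour. GT72B1, known for sugar conjugation of phenolics and foreign chemicals, went the other way, from 42.0 to the floor and back to 39.3, at least 1.71 below.

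Signalling genes of defence and calcium formed a further set, grouped here by known role after their values were seen. PUB22, a U-box ubiquitin ligase that damps immune signalling, had 21.4, 127 and 28.3, a deviation of 2.17, and late signals from the floor to 71.5. BIK1, a receptor-like cytoplasmic kinase of pattern-triggered immunity, had 407, 989 and 303, a deviation of 1.28, and 233 to 313 later. WRKY22, a transcription factor of the same responses, had 84.5, 174 and 30.9, a deviation of 1.04 from 0 h and 2.49 from 4 h. It was the gene counted above among 10 probe sets of WRKY, MYB, NAC and bHLH factors, where MYBC1 was counted below.

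CML42, a calmodulin-like calcium sensor, had 34.7, 198 and 54.1, a deviation of 1.87, and 44.4 to 63.8 later. ATGLR1.2, a glutamate receptor-like channel, had 33.4, 126 and 36.0, a deviation of 1.80. IQD23, of a calmodulin-binding family, had 196, 510.4 and 223, a deviation of 1.20. Each of these genes stood above all 9 other arrays at 2 h.

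On the touch, calcium and wounding list, CML42 and WRKY22 lay above both neighbours and 0 of 12 probe sets below. Other genes of the list were high at 0 h and low by 2 h, which is a different course. STZ, a zinc-finger factor induced by many stresses, had 575, 87.4 and 42.2, and CML38 had 145, the floor and the floor. The list's median difference from the mean of 0 and 4 h was -0.18, with 4 positive and 7 negative, beside 0.00 for all probe sets, and was -0.05 with a common median and -0.11 after quantile normalization.

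The list of pathogenesis-related proteins, chitinases and peroxidases had 1 of 24 probe sets above and 1 below, against 2.21% and 1.85% of all, counts too small to describe the list. AT5G64120, a peroxidase by the gene table, had 43.2, 468 and 180.4, a deviation of 1.37 from 4 h and 3.44 from 0 h, and 125 to 229.8 later. AT2G41480, also a peroxidase, fell from 459.5 to 53.2 and was 487 at 4 h, a deviation of 3.11, with 305 to 432 later. Class III peroxidases act in the cell wall, where they can both cross-link and loosen polymers, and these 2 moved in opposite directions.

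**Figure D4:**
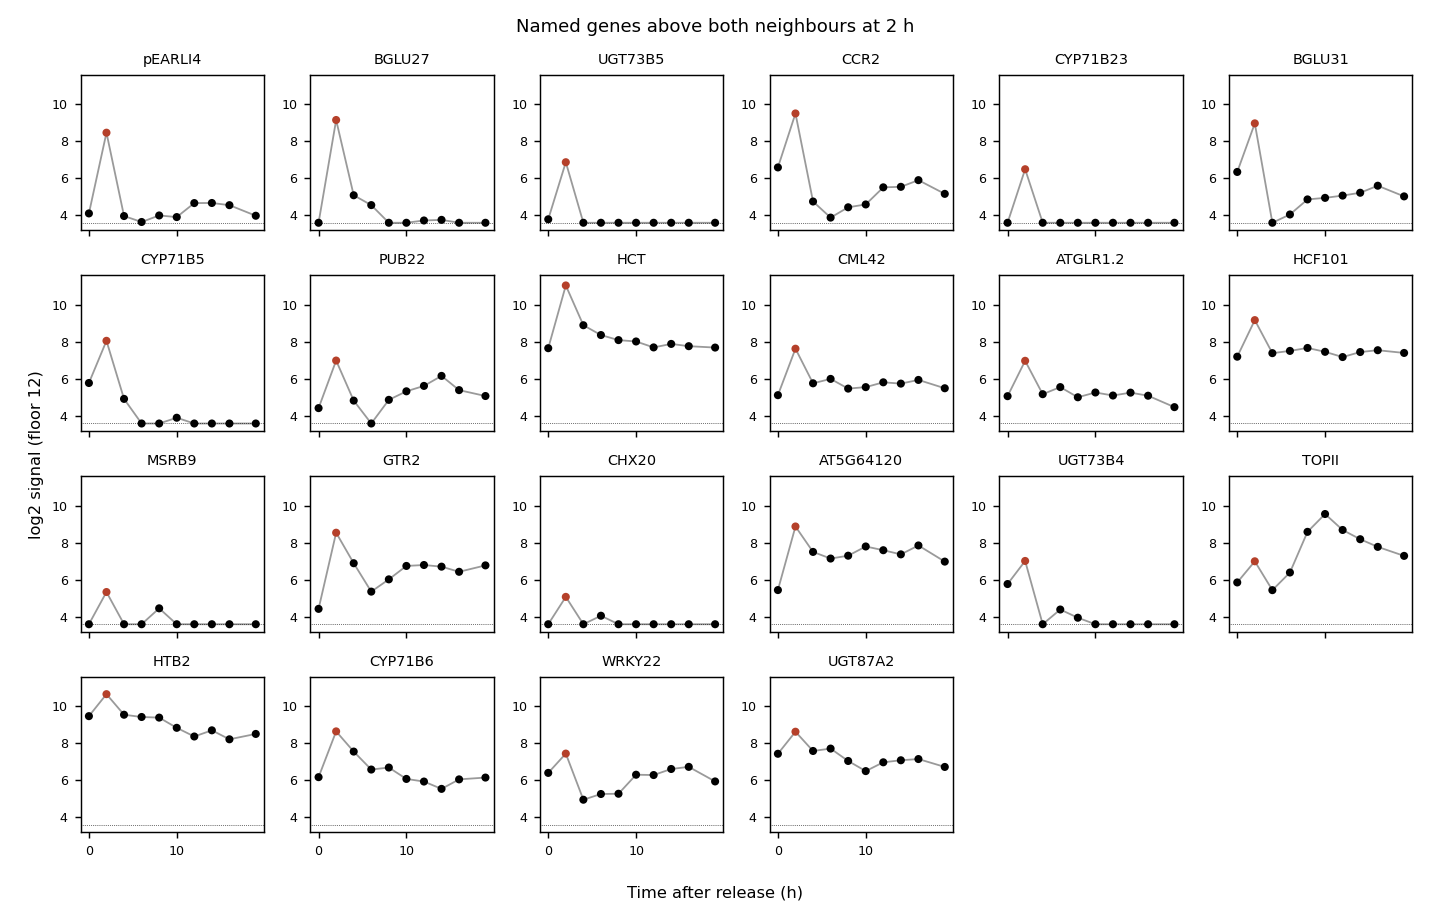
Each panel shows 1 upward gene named by the fixed rule, with the log2 of its MAS5 signal against hours after release, signals under 12 set to 12. The 2 h point is above both neighbours in each panel, and only TOPII has later points above it.

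Transporters among the upward genes included GTR2, which imports glucosinolates and belongs to the nitrate and peptide transporter family. It had 21.3, 370.4 and 118, a deviation of 1.65 from 4 h and 4.12 from 0 h, and was the 1 of 12 probe sets on the nitrate, phosphate and sulphate list to be counted above, with 0 below. CHX20, a cation/proton exchanger, went from the floor to 33.5 and back to the floor, at least 1.48. XPO1B, an exportin that carries proteins out of the nucleus, had 127, 313 and 125, a deviation of 1.303, and 126 to 246 later. CHX20 and the redox gene MSRB9 were weak, and both dropped under the threshold with the floor raised to 24. Of the named upward genes AGL62 and SHB1 did so too, and more of the downward genes, which are listed further on.

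Redox, metal and plastid functions were each represented by single genes. MSRB9, a methionine sulfoxide reductase, went from the floor to 40.1 and back to the floor, at least 1.74. MT1C, a metallothionein, a small protein that binds metal ions, went from the floor to 143 and stood at 51.6 at 4 h, a deviation of 1.47, with a late median at the floor. HCF101, which assembles iron-sulfur clusters in the plastid, had 147, 578 and 168, a deviation of 1.79, and 145 to 204 later.

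Of the cell-cycle genes, HTB2, a histone H2B gene, had 709, 1615 and 747, a deviation of 1.11, and declined to between 298 and 687 later. The other 4 core histone probe sets were also higher at 2 h than the mean of 0 and 4 h, with a list median of 0.89, and 1 of 5 was counted above. HTB4 missed the threshold at 675, 1190.3 and 615, and HTB11 at 339, 665 and 260. HTB1, at 341, 389 and 320, and HTR12, at 81.5, 93.3 and 84.3, changed little. With arrays scaled to a common median 2 of 5 were counted. Copies of H2B are alike in sequence, so signal may be shared between their probe sets.

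TOPII, topoisomerase II, which untangles replicated chromosomes, had 57.5, 127 and 43.0, a deviation of 1.14, but its highest signal of 747 came at 10 h, so that its 2 h value was a small early excursion beside a later one. It was the 1 of 13 mitosis and cytokinesis probe sets counted above, with 0 below. AGL62, a MADS-box factor known from endosperm, likewise had a later high point, with 27.0 at 2 h between 2 values at the floor and 40.1 at 19 h. None of the 4 DNA replication and 14 DNA repair probe sets was counted in either direction, with list medians of -0.09 and -0.08. These became 0.04 and 0.06 after scaling to a common median, and -0.09 and -0.03 after quantile normalization.

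The remaining upward symbols were YLS5, GFAT, SHB1 and UBP21, named after their values were seen, as were MT1C, XPO1B, BIK1, IQD23 and AGL62. YLS5 had 59.8, 561 and 254, a deviation of 1.15 from 4 h and 3.23 from 0 h, and returned to between 47.8 and 82.9. GFAT, which makes glucosamine phosphate for protein and lipid glycosylation, had 42.5, 97.9 and 36.8. UBP21, a ubiquitin-specific protease, had 299, 611 and 246. SHB1 stood at 24.98 at 2 h between neighbours at the floor. The last 3 had deviations of 1.21, 1.03 and at least 1.06, and that of UBP21 fell under 1 after quantile normalization.

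The 2 largest upward deviations, 5.93 and 5.72, were of probe sets without a gene in the annotation used. Genes known by locus code alone followed, chosen after their values were seen, with no role given to them here. AT1G51790 went from the floor to 406 and back to the floor, at least 5.08, and AT1G26380 from the floor to 636 and 19.7, a deviation of 5.01. AT3G46280 had 50.4, 1447 and 113, with a deviation of 3.67. AT5G42830 had 79.6, 1892 and 158, with 3.58. AT1G02360 had 37.3, 1139.7 and 95.8, with 3.57. The late maxima of these 5 genes lay between the floor and 248, far under their 2 h signals.

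Downward genes included some of the cell wall, membranes and growth regulation, a grouping also made after the values were seen. EXLA1, an expansin-like protein, had the highest signals of these wall genes, at 1577, 400.2 and 1221, with a deviation of 1.61, and 897 to 1459 later. EXGT-A3, a xyloglucan endotransglucosylase that cuts and rejoins wall polymers, had 436, 175 and 483, a deviation of 1.32. ATCSLC08 and CSLC12, of the family that makes the xyloglucan backbone, had 58.7, the floor and 40.7, and 85.9, 25.3 and 53.4, deviations of at least 1.76 and of 1.08. The 2 h value of each of the 4 genes was the lowest of its 10 arrays.

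These were the 4 of 81 cell wall probe sets counted below, against 1.85% of all probe sets, and 0 were counted above. The list median was -0.08, with 18 positive and 44 negative, and became 0.00 after scaling to a common median or quantile normalization, both of which took CSLC12 off the count and left 3. Outside that list, COB, the COBRA protein that orients cellulose, had 124, 50.1 and 111, a deviation of 1.15, and THE1, a receptor kinase that senses wall damage, had 105, 25.4 and 84.3, a deviation of 1.73. RALFL33, a RALF-type signal peptide, had 283, 76.7 and 212, a deviation of 1.46. THE1 and RALFL33 stood above their 2 h level on every other array, at 84.3 or more and 211 or more.

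TET5, a tetraspanin of the plasma membrane, had the largest downward deviation among symbols, with 153, 24.7 and 129, a deviation of 2.39, but was at 43.4 to 135 later. SETH6 went from 70.5 to the floor and back to 52.9, at least 2.14. ARLA1A, a small GTPase of the ARF-like family, had 111, 25.6 and 99.6, a deviation of 1.96, and 90.3 to 149.7 later. RTE1, which modulates the ethylene receptor ETR1, had 256, 66.7 and 292, a deviation of 1.94, and 169 to 203 later. GID1A, a gibberellin receptor, went from 38.7 to the floor and back to 38.4, at least 1.68. All 5 of these genes had their lowest signal of the course at 2 h.

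Several downward genes encode transcription factors. MYBC1, a MYB-type factor, had 56.0, 14.4 and 81.5, a deviation of 1.96, but fell to the floor at 10 to 16 h, so 2 h was not its lowest time. TCP15, of a family that controls growth and cell division, had 123.02, 39.8 and 158, a deviation of 1.63, and 122 to 208 later. HAT2, an auxin-responsive homeodomain factor, had 44.7, 13.7 and 27.9, with 1.03. LBD16, an auxin-responsive factor of lateral root formation, had 37.8, 17.9 and 40.3, with 1.08. BZIP24 had 40.004, 12.7 and 25.5, with 1.00. The last 3 of these, HAT2, LBD16 and BZIP24, lost the count under both other scalings.

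Plastid and metabolic genes also stood among those below. SBE2.2, a starch-branching enzyme, went from 45.2 to the floor and back to 60.9, at least 1.91. AT4G33150, which the gene table describes as a lysine-degrading bifunctional enzyme, had 52.0, 18.3 and 50.4, a deviation of 1.46. CHLM, a chlorophyll synthesis enzyme, had 60.6, 28.3 and 65.1, a deviation of 1.101 that dropped under 1 in both other scalings. It was the 1 of 13 nuclear photosynthesis probe sets counted below, with 0 above and a list median of -0.31, or -0.17 with a common median and -0.27 after quantile normalization.

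rbcL, the plastid-encoded large subunit of Rubisco, went from 36.0 to the floor and back to 42.2, at least 1.59. Of 69 plastid genome probe sets 1 was counted below and 0 above, no more than the 1.85% and 2.21% of all probe sets. Differences from the mean of 0 and 4 h were positive in 14 and negative in 55, with a median of -0.23. That median was -0.10 under scaling to a common median, with 30 positive and 39 negative, and -0.21 after quantile normalization, with 15 and 54.

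ACT11, an actin, had 75.7, 29.3 and 96.5, a deviation of 1.37, and was the 1 of 9 tubulin and actin probe sets counted below, with 0 above. In that list 1 was positive and 7 negative, with a median of -0.27, which was -0.14 after scaling to a common median and -0.37 after quantile normalization. The 3′ actin control on the array stood at 1349 at 2 h, against 1541 to 1918 on the other 9 arrays. NET1C, an actin-binding protein, had 41.7, 18.1 and 37.1, with a deviation of 1.03, and TRM20 went from 31.1 to the floor and back to 52.97, at least 1.37.

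The remaining downward symbols were chosen after their values were seen, as were COB, HAT2, LBD16, BZIP24 and NET1C. Their deviations ran from 1.00 to 1.37, and their 2 h signals from the floor to 89.6. CDI had 296, 89.6 and 231. CaS, a calcium sensor of the thylakoid membrane, went from 28.1 to the floor and back to 41.4. MAP1C, a methionine aminopeptidase, had 69.9, 34.2 and 69.4, and PAC, needed for chloroplast development, had 45.8, 22.7 and 48.2. MAP1C and PAC lost the count under both other scalings, as did NET1C. MRL7-L, DOR, MOL1, AFR, SECE1, AOP1 and APTX completed the set, with 2 h signals of at most 18.8. All of these dropped under the threshold with the floor at 24, as did CaS, PAC, NET1C, HAT2, LBD16 and BZIP24. So did SBE2.2, ATCSLC08, GT72B1, GID1A, rbcL and TRM20. SECE1 and AOP1 also lost the count under both other scalings.

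Among genes with a locus code alone, chosen after their values were seen, AT4G01410 went from 223 to the floor and back to 244, at least 4.21 below. AT5G62350 went from 244 to the floor and back to 189.8, at least 3.98. AT2G28660 had 448, 55.1 and 535, a deviation of 3.02, and AT5G57340 had 94.0, 13.7 and 122, a deviation of 2.78. For each of these 4 genes the lowest later signal, between 33.6 and 220.1, exceeded the 2 h signal.

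**Figure D5:**
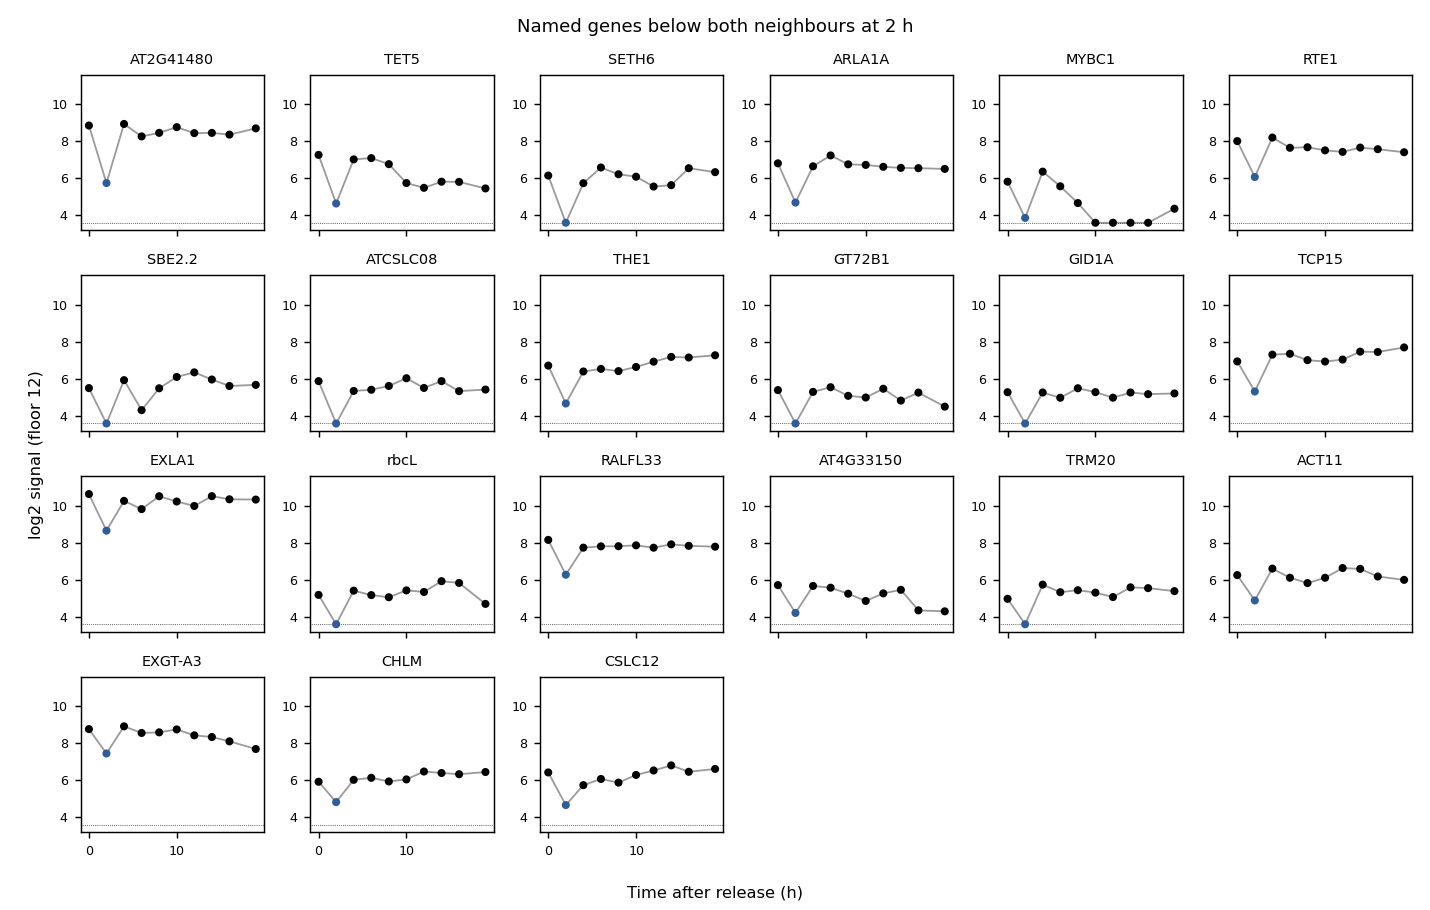
Each panel shows 1 downward gene named by the fixed rule, with the log2 of its MAS5 signal against hours after release, signals under 12 set to 12. The 2 h point is below both neighbours in each panel, and MYBC1 is the panel with later points under its 2 h value.

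No probe set was counted in either direction, by the rule of 1 log2 unit from both neighbours, among 14 glutathione transferase, 12 sugar starvation and autophagy, 12 auxin response, 6 cytokinin response, 21 mitochondrial dehydrogenase and oxidase and 12 dehydration and cold probe sets. The same held for 3 heat shock, 2 ER stress, 2 reference gene, 2 ribosomal protein, 2 glucosinolate and indole, 1 low-oxygen, 1 ethylene and 1 terpenoid probe set. Many families on these lists have few named probe sets in the annotation used. A count of 0 says little where the list is short or its signals were low. Of 12 auxin probe sets, 1 had enough signal to be counted above and 1 below, and likewise of 6 cytokinin ones. The numbers were 2 and 5 of 14 glutathione transferase and 4 and 4 of 12 dehydration and cold probe sets. They were 12 and 11 of 12 autophagy and 14 and 15 of 21 mitochondrial ones. ABC transporters, jasmonate, water channels and the mitochondrial genome had no named probe set and were not analysed here.

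Markers of the cell types that a suspension could hold were read in the same arrays. Of 9 markers of dividing cells 6 had a named probe set, and their summed signal was 4001, 5556 and 3359 in that order, the 2 h sum being the highest of 10 arrays and the lowest being 3330. The 4 H2B genes among them carried that rise, with sums of 2063, 3859 and 1942, although HTB1 alone changed little. The other 2 markers were lower at 2 h than at 0 h. TUA6, an alpha-tubulin, had 1841, 1611 and 1342 and its highest signal at 12 h, and AUR1, a mitotic kinase, had 97.3, 86.5 and 75.7 and its highest at 10 h. Of 16 leaf-like photosynthetic markers 3 had a named probe set, with sums of 186, 156 and 294, the 2 h sum being the lowest of a range that reached 467, and PSAE-1 was at the floor at 0 and 2 h. Of 4 root hair markers 2 had one, with sums of 36.0, 32.4 and 46.02, and none of the 8 secondary wall and 6 seed markers had one. In bulk RNA, fewer cells of a type and less RNA per cell cannot be told apart, and the part of cell composition in the 2 h values was not tested.

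Gene order was taken over the 13217 genes with a probe set naming only them, so other genes may lie between neighbours in it. In that order upward genes formed 9 neighbouring pairs, which hold 18 of 233 placed genes (7.73%). Of all genes in the order, 3.49% lay beside an upward gene. The pairs included UGT73B5 with UGT73B4, BIK1 with AT2G39650 and ATGLR1.2 with AT5G48370. Downward genes gave 4 pairs with 8 of 218 genes (3.67%), close to the 3.25% of all genes in the order that lay beside a downward gene, and RTE1 with AT2G26110 and BZIP24 with AT3G51950 were among them. Probe sets whose names mark probes shared between transcripts made up 4.58% of the upward and 2.62% of the downward set, against 4.66% of all.

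At the edge of the rule the values were close together. Just inside it, AT4G22030, AT5G04760 and AT1G77660 lay 1.003, 1.006 and 1.01 above the nearer neighbour, and just outside AT2G07180, AT1G34750 and AT4G13230 lay 0.999, 0.996 and 0.995 above. On the downward side AT1G02300, BZIP24 and APTX lay 1.001, 1.003 and 1.004 below, and AT5G50420, AT4G02180 and AT4G40045 lay 0.998, 0.996 and 0.996 below. With 1 array per time, these genes on either side cannot be separated.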

How the data were processed

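Total RNA of 10 samples was hybridised to ATH1 arrays, biotin-labelled per the labels. The deposited values are MAS5 intensity signals per probe set, per the submitters' processing notes, with the MAS5 version not given in the sources used here. Their 2% trimmed mean was 99.3 to 99.4 on every array, so the authors' values were already scaled and were used as deposited. Of 22810 probe sets, 64 controls were left out. Signals under 12 were set to 12 and log2 taken. Gene names came from the platform annotation, and of 13513 probe sets with 1 gene 13436 matched a RefSeq gene table, used for names and gene order.

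Each time had 1 array, so no test, error or p-value could be given, and precision is limited by that number. A difference of 1 log2 unit or more from both neighbours was the call. The counting code was run on simulated flat courses with known changes placed at 2 h in strongly expressed probe sets. That run checks the code alone and does not cover weak signals or those at the floor. Python 3.11.15 with pandas 2.3.3, numpy 2.4.6 and matplotlib 3.10.9 was used.

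Genes, lists and alternatives were chosen with earlier results of these data known. The rule named the 15 symbols with the largest deviation per direction, up to 10 locus-code genes with a description (3 genes in all), members of the lists and the 3 probe sets on each side of the threshold. Other genes are said to be chosen after their values were seen. How names were matched to the lists, and 17 names of other families left out of them, were settled after the values were available and with the counted probe sets in view, and no name left out was counted at 2 h. The plastid list was taken by chromosome in the gene table. Promoter motifs were planned and not run. Alternatives covered the floor, a pseudocount, the scaling, a filter, the threshold and the arrays compared.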

Additional observations from a re-analysis of the deposited data

How the results depend on the processing

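No paired analysis was possible because each time has 1 array and all carry the same replicate number. Main counts were 502 above and 420 below. Without a floor they were 930 and 1138. The downward count was 274 with the floor at 24, 156 with it at 48, 207 with a pseudocount of 16, and 224 against all 9 other arrays. A threshold of 1.5 left 244 above and 132 below, and 2 left 127 and 41. Against 4 and 6 h, without the 0 h array, 818 lay above. Other counts stayed within 1.5 times of the main ones. Of 77 named genes under 10 alternatives, 762 values were obtained. Of these, 534 moved by less than the SD over the 7 late arrays, the spread available here. The filter leaves each deviation as it was, so its 69 values are among the 534 by construction. Other alternatives can also leave a value unchanged. Of the rest of the 762, 223 moved by more and 5 turned sign. All 5 turned against all 9 other arrays: TOPII -2.56, AGL62 -0.57, MYBC1 -0.26, HAT2 -0.19 and SECE1 -0.13, because a later array passed their 2 h value. Past the threshold were 54 of 77 with the floor at 24, 44 at 48, 50 with the pseudocount, 67 with a common median, 65 after quantile normalization, 69 with either neighbour replaced by 6 h and 51 against all 9. Why the counts moved with the floor and the arrays compared was not tested beyond this.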
